A study of Mus musculus with 4 samples.

Results

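The genes for the inflammatory cytokines IL-1, IL-6 and TNF and for their receptors were followed in purified brain endothelial cells. They were 10 of the 21578 genes in the deposited tables, taken by symbol: the ligands Il1a, Il1b, Il6 and Tnf, and the receptor chains Il1r1, Il1rap, Il6ra, Il6st, Tnfrsf1a and Tnfrsf1b. All 10 were listed, and all 10 passed the filter on low counts, which left 15909 genes for the test. Il1b passed that filter only through its control libraries. Control mice (Pd1fl/fl) carried floxed Pd1 alleles without Cre. Knockout mice (Pd1cKO-Tie2) carried the same floxed alleles with Tie2-Cre, so that Pd1 was deleted where the Tie2 promoter is active. That promoter is also active in blood-forming cells, so the deletion need not be limited to endothelium. Both groups were C57BL/6 mice at postnatal day 0 and gave 2 libraries each. Cortices were digested with papain, red cells were lysed, and cells labelled for CD31 and CD45 were purified by flow cytometry. The source text does not say how many mice made up a library, so the p-values measure only the spread between these libraries.

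IL-1, IL-6 and TNF are the classical early cytokines of inflammation, and microglia, macrophages and endothelium can all make and answer them. IL-1α and IL-1β bind the same receptor, IL-1R1, which needs the accessory chain encoded by Il1rap to signal through MyD88 to NF-kB. IL-6 binds IL-6Rα on the membrane or in soluble form, and the pair then engages gp130, the chain encoded by Il6st, which signals through JAK kinases and STAT3. TNF binds TNFR1 (Tnfrsf1a), found on most cells, and TNFR2 (Tnfrsf1b), found mainly on endothelial and immune cells. In endothelium these pathways are known for inducing leukocyte adhesion molecules, chemokines and prostaglandin synthesis.

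Il6, Il1b and Tnf were also assayed by RT-qPCR in the study, in brain rather than in purified endothelial cells. It reported all 3 as higher in knockout brain, and as similar between genotypes in embryonic brain. The primers show which transcripts those assays read. All 3 primer pairs matched transcripts of their own gene, and no transcript of another gene held both primers of a pair. Single primers were not searched against other genes. On GRCm38, the Il6 pair amplified 131 bases in exons 1 and 2 (forward primer chr5:30013205-30013390 across the intron, reverse primer chr5:30013478-30013500, gene on the plus strand) and matched 3 of 4 annotated transcripts. The Il1b pair amplified 116 bases in exons 2 to 4 (forward primer chr2:129369750-129370303 across an intron, reverse primer chr2:129368112-129368132, gene on the minus strand) and matched 1 of 3 transcripts. The Tnf pair lay within exon 1 (forward primer chr17:35201742-35201760, reverse primer chr17:35201672-35201693, gene on the minus strand), amplified 89 bases and matched 2 of 2 transcripts. The sequences are given 5′ to 3′ with nothing capitalised.
Il6 forward: ctgcaagagacttccatccag
Il6 reverse: agtggtatagacaggtctgttgg
Il1b forward: gaaatgccaccttttgacagtg
Il1b reverse: tggatgctctcatcaggacag
Tnf forward: caggcggtgcctatgtctc
Tnf reverse: cgatcaccccgaagttcagtag

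The last 100 bases before the annotated start of the 4 ligand genes, from RefSeq on GRCm38.p6, are shown because Il1a and Il1b were lower together in the knockout libraries while Il6 and Tnf were not past the criterion used below. Capitals mark TATAAA, searched on the gene's strand, and the NF-kB consensus of 10 bases, searched on both strands. The windows were chr2:129309973-129310072 for Il1a (minus strand), chr2:129371140-129371239 for Il1b (minus strand), chr17:35202008-35202107 for Tnf (minus strand) and chr5:30013014-30013113 for Il6 (plus strand).
Il1a: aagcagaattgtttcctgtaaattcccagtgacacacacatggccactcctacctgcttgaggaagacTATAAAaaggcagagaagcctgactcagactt
Il1b: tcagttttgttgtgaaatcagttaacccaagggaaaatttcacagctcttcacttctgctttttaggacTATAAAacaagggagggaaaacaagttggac
Tnf: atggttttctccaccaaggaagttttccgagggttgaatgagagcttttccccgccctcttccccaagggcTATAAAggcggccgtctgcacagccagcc
Il6: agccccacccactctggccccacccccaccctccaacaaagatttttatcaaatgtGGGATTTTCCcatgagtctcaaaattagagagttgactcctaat
TATAAA began 32, 31 and 29 bases before the start of Il1a, Il1b and Tnf. Over all 32851 promoters in the RefSeq table, 3.80% held TATAAA in the same window and 3.00% held the NF-kB consensus there. Il6 was the only ligand with the NF-kB letters in the window, 44 bases before its start. None of the 6 receptor genes held either motif in its last 100 bases, and a match in 250 bases (7.25% of all promoters) was found for 1 of the 2 listed starts of Il1r1, at 232 bases. These matches describe letters only.

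The libraries held 13715837 to 24147311 counts, with Pd1cKO-Tie2 1 the deepest. Levels are given as CPM, the counts per 1000000 counts of a library, scaled by edgeR's TMM method. A gene with no count can still hold up to 3 counts, which is 0.125 to 0.219 CPM. Intervals and limits of this kind cover counting error only. Pdcd1, the gene of PD-1, had 32 counts in Pd1fl/fl 1 and none in Pd1fl/fl 2 or in either Pd1cKO-Tie2 library, so its counts do not separate the genotypes. The endothelial label held: all 18 endothelial markers were counted in every library, and Cldn5, a tight junction claudin, reached 4763 to 6997 CPM. Other cells were also represented, as all 20 microglia and macrophage markers were counted in every library. Ptprc, which encodes CD45, was 86.1 and 138 CPM in Pd1fl/fl and 54.5 and 67.8 CPM in Pd1cKO-Tie2. Its groups did not overlap (log2 fold change −0.88, SE 0.29). In bulk libraries, fewer cells of a type and less RNA per cell cannot be told apart.

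Of the 10 members, Il1a and Il1b were lower and Il1r1 was higher in Pd1cKO-Tie2 past the criterion taken from the study's methods (2-fold or more, with an unadjusted p not above 0.05). Over all tested genes 4.02% passed this criterion, 1.41% as higher and 2.61% as lower. No member had an adjusted p under 0.05 by edgeR's quasi-likelihood test, and neither did any other gene (0% of those tested), although 1016 genes had an unadjusted p under 0.05. DESeq2, run on the same counts, gave 114 genes an adjusted p under 0.05 (0.672% of the genes to which it assigned one), and Il1b was among them. Il1a, Il1b and Tnf, or 3 members, had both Pd1cKO-Tie2 libraries below both Pd1fl/fl libraries, an order held by 18.1% of all tested genes. For 1 member, Il1r1, both were above, an order held by 17.8%. The unadjusted p entered the criterion only, and adjusted p-values are given below. With 2 libraries against 2, an exact permutation test of 1 gene cannot go below p = 0.333 (two-sided).

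**Figure D1:**
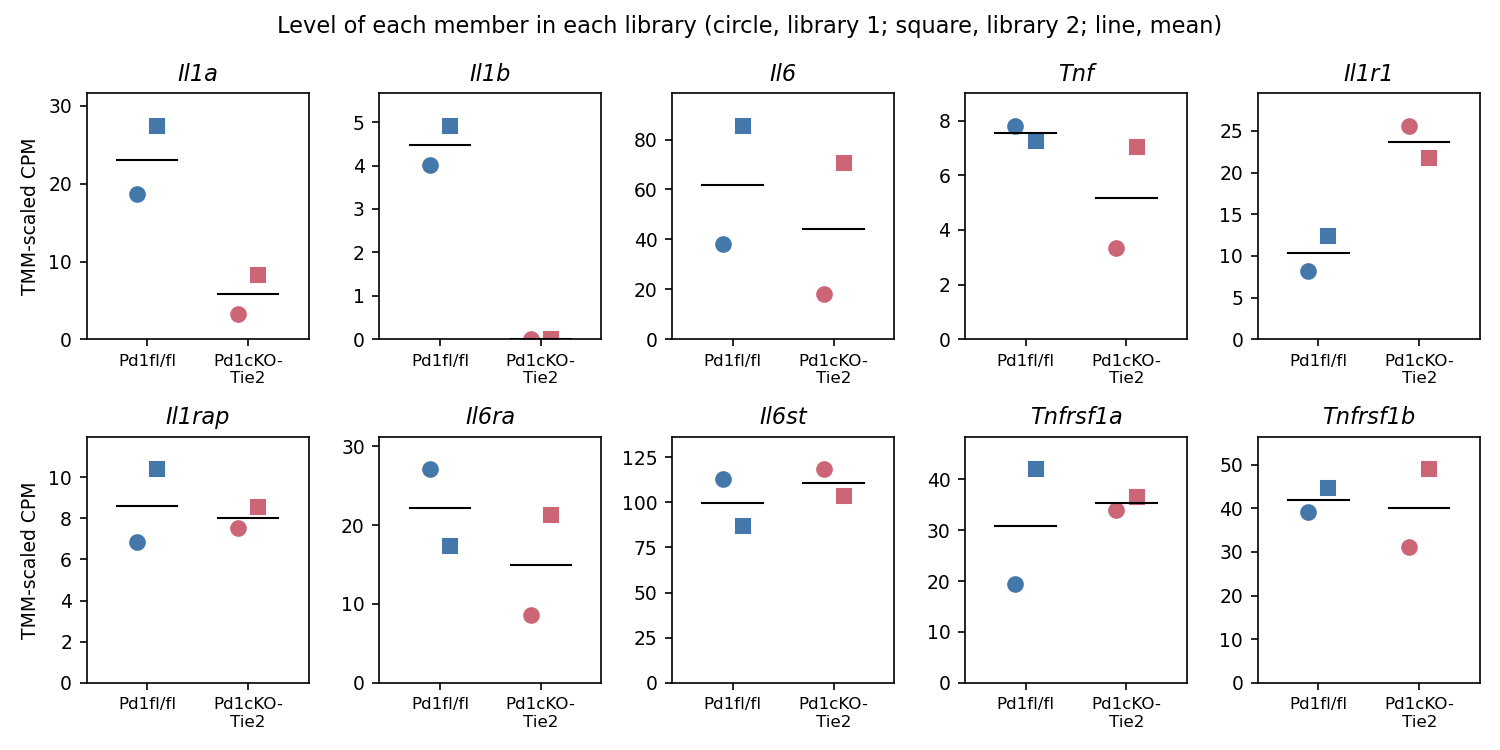
TMM-scaled CPM (vertical axes, each from 0) of the 10 members in the 2 Pd1fl/fl and 2 Pd1cKO-Tie2 libraries, with circles for library 1, squares for library 2 and lines for means. Il1a, Il1b and Tnf have both knockout points below both control points, Il1r1 has both above, and the other 6 overlap.

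Il1a encodes IL-1α, which is active without cleavage and can act as an alarm signal of damaged cells. It lies on chromosome 2 (129299610 to 129309972, minus strand). Its level was 18.7 and 27.5 CPM in the Pd1fl/fl libraries and 3.26 and 8.26 CPM in the Pd1cKO-Tie2 libraries. Both control libraries were well above both knockout libraries, and the lowest value was that of the deepest library, where it still rested on 78 counts. The means were 23.1 ± 6.22 and 5.76 ± 3.54 CPM (SD, n = 2 each). The log2 fold change was −2.01 (SE 0.59), a 4.03-fold lower level, with an adjusted p of 0.735 by edgeR with Benjamini-Hochberg adjustment. Without Pd1fl/fl 2 the log2 fold change was −1.70 (SE 0.76), which no longer met the criterion. The call was kept without each of the other 3 libraries, but the log2 fold change ran from −1.47 without Pd1cKO-Tie2 1 to −2.82 without Pd1cKO-Tie2 2.

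Il1b encodes IL-1β, which is made as a precursor and released after cleavage by inflammasome-activated caspase-1. It lies on the same strand of chromosome 2 (129364570 to 129371139), with 54.6 kb between the 2 genes. It had 58 and 70 counts in the Pd1fl/fl libraries, or 4.01 and 4.92 CPM, and 0 counts in both Pd1cKO-Tie2 libraries. The control libraries differed by 1.23-fold, and counting error alone on that ratio was 17.8%. Set against the limit of 3 counts per library, the knockout level was at least 25.9-fold lower on the means. It was at least 18.3-fold lower when the lower control library was set against the higher limit. The adjusted p was 0.735 by edgeR's quasi-likelihood test and 0.0135 by DESeq2. Il1b entered these tests only through its counts in the control libraries, where it was high, so the p-values are no separate support. The call was kept without each library in turn, but with 0 counts in both knockout libraries that outcome was likely beforehand. Requiring 10 counts per library left the gene out of the test. Il1b was 1 of 6 tested genes with at least 58 counts in both Pd1fl/fl libraries and none in either Pd1cKO-Tie2 library (0.0377%), while 5 genes showed the mirror image (0.0314%).

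The 5 genes nearest to Il1b in their levels over the 4 libraries were found among 15868 genes with at least 50 counts, by the distance between mean-centred log2 CPM. They were P3h3 (distance 0.19), Gm19552 (0.34), Cldn15 (0.36), Gm29361 (0.37) and Gimap3 (0.42). Each had 43 to 81 counts in the Pd1fl/fl libraries and 0 in both Pd1cKO-Tie2 libraries.

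Il6, the ligand of the gp130 pathway, was 38.1 and 85.6 CPM in Pd1fl/fl and 18.2 and 70.4 CPM in Pd1cKO-Tie2. The libraries of the 2 genotypes were interleaved, and library 2 of each was far above library 1. The difference between libraries of one genotype, 2.25-fold in Pd1fl/fl and 3.88-fold in Pd1cKO-Tie2, was large beside counting errors of 5.13% and 5.78%. The means were 61.9 ± 33.6 and 44.3 ± 36.9 CPM (SD, n = 2 each), and the log2 fold change of −0.49 (SE 0.69) was within that spread. Its sign depended on single libraries. It was 0.21 without Pd1fl/fl 2, 0.20 without Pd1cKO-Tie2 1, and −1.76, past the criterion, without Pd1cKO-Tie2 2.

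Tnf had 7.82 and 7.24 CPM in Pd1fl/fl and 3.34 and 7.02 CPM in Pd1cKO-Tie2. The knockout libraries lay below the control libraries, but Pd1cKO-Tie2 2 was only just below them, and the low mean came from Pd1cKO-Tie2 1. The log2 fold change was −0.54 (SE 0.69), not past the criterion. It was −0.092 without Pd1cKO-Tie2 1 and −1.17 without Pd1cKO-Tie2 2.

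Among the receptors, Il1r1, the signalling receptor of both IL-1 ligands, was the only chain past the criterion. It lies on chromosome 1 (40225080 to 40317257, plus strand). Its level was 8.23 and 12.4 CPM in Pd1fl/fl and 25.6 and 21.7 CPM in Pd1cKO-Tie2. The groups did not overlap, and the counts behind them ran from 119 to 614. The means were 10.3 ± 2.92 and 23.7 ± 2.78 CPM (SD, n = 2 each), a 2.30-fold higher level with a log2 fold change of 1.20 (SE 0.40). The adjusted p was 0.735 by edgeR's quasi-likelihood test. The call was lost without Pd1fl/fl 1 (log2 fold change 0.94, SE 0.51), without Pd1cKO-Tie2 1 (1.08, SE 0.54) and without Pd1cKO-Tie2 2 (1.32, SE 0.52). It was kept without Pd1fl/fl 2 and under all 7 other fitted tools, filters and scalings, where the log2 fold change lay between 1.14 and 1.25.

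The ligand gene Il1a and the receptor gene Il1r1 were thus past the criterion in opposite directions. Their ratio follows from these calls and is no separate support for them. The ratio of Il1r1 to Il1a counts needs no scaling between libraries. It was 0.44 and 0.45 in Pd1fl/fl against 7.87 and 2.63 in Pd1cKO-Tie2. In CPM per kilobase of exon Il1r1 was above Il1a in Pd1cKO-Tie2 1, at 4.03 against 1.65. In Pd1cKO-Tie2 2 Il1r1 was below Il1a, at 3.41 against 4.19. The ratio of Il1r1 to its partner Il1rap was 1.20 and 1.19 in Pd1fl/fl against 3.41 and 2.54 in Pd1cKO-Tie2. Il1rap, the accessory chain shared with the IL-33 receptor, was itself 6.85 and 10.4 CPM in Pd1fl/fl and 7.52 and 8.56 CPM in Pd1cKO-Tie2. Its knockout values lay between the control values, with a log2 fold change of −0.10 (SE 0.55).

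For IL-6, the binding chain Il6ra was 27.1 and 17.4 CPM in Pd1fl/fl and 8.61 and 21.3 CPM in Pd1cKO-Tie2. The groups overlapped, and only Pd1cKO-Tie2 1 was low, with a log2 fold change of −0.58 (SE 0.54). Left without Pd1cKO-Tie2 1 it was −0.056, and without Pd1cKO-Tie2 2 it was −1.37, neither past the criterion. Il6st, the gp130 chain that all cytokines of the family share, had the most counts of the 10 members. It was 113 and 86.7 CPM in Pd1fl/fl and 118 and 103 CPM in Pd1cKO-Tie2, again overlapping, with a log2 fold change of 0.15 and the smallest SE of the members, 0.22.

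For TNF, Tnfrsf1a was 19.5 and 42.0 CPM in Pd1fl/fl and 34.0 and 36.6 CPM in Pd1cKO-Tie2. Both knockout values lay between the control values, which differed by 2.15-fold, and the log2 fold change was 0.20 (SE 0.42). Tnfrsf1b was 39.2 and 44.7 CPM in Pd1fl/fl and 31.1 and 49.0 CPM in Pd1cKO-Tie2. Here the control values lay between the knockout values, with a log2 fold change of −0.069 (SE 0.32). The adjusted p of all 7 members not past the criterion was 1.00 by edgeR with Benjamini-Hochberg adjustment. The SE of 5 of these 7 was larger than that of Il1r1.

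**Figure D2:**
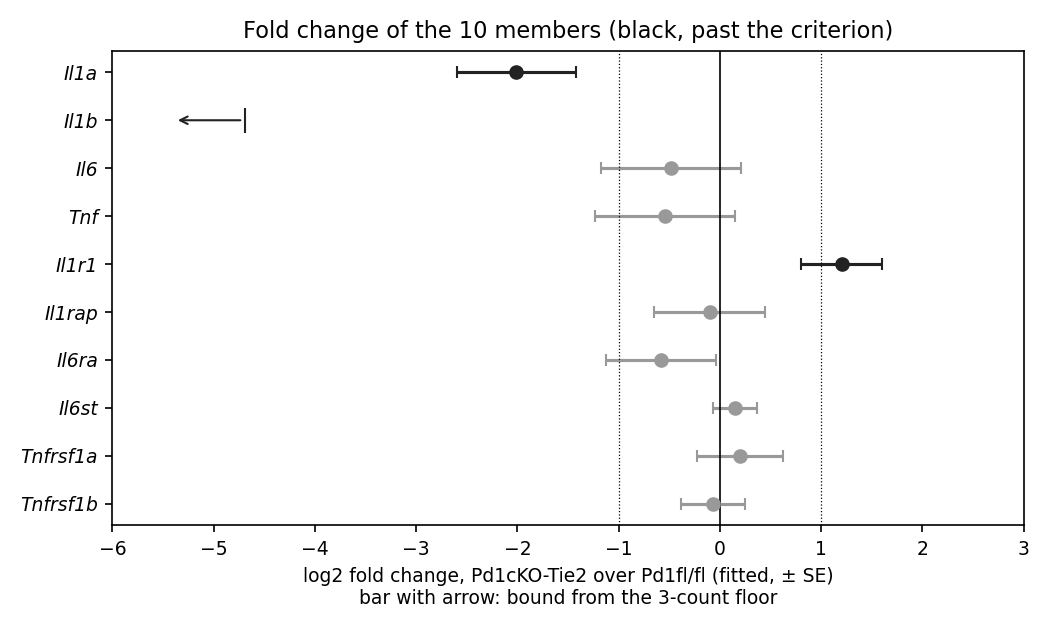
Fitted log2 fold change of Pd1cKO-Tie2 over Pd1fl/fl (horizontal axis) with its SE for the 10 members, black where past the criterion and with dotted lines at 2-fold. Il1a lies at −2.01 and Il1r1 at 1.20, Il1b is drawn as a bound of −4.70 against the 3-count limit, and the other 7 lie between −0.58 and 0.20.

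Levels between genes were compared as TMM-scaled CPM per kilobase of exon, averaged over the 4 libraries. Il6 was highest at 21.9, followed by Tnfrsf1a (12.8), Tnfrsf1b (10.7) and Il6st (9.50). Il1a came next at 7.31, then Tnf (3.88), Il1r1 (2.67), Il6ra (2.15), Il1b (1.17) and Il1rap (0.73). The range over the 4 libraries of each gene overlapped that of the next in this order, so no neighbours were apart beyond their spread. The ends of the order were apart: the lowest Il6 value, 7.48, was above every value of Tnf, Il1r1, Il6ra, Il1b and Il1rap, the highest of which was 4.77. The lower part of the order differed within genotypes. In Pd1fl/fl Il1a averaged 11.7 per kilobase, near Tnfrsf1a at 11.9, and Tnf (4.59), Il6ra (2.57) and Il1b (2.34) were above Il1r1 (1.62). In Pd1cKO-Tie2 the mean of Il1r1 (3.72) was above those of Tnf (3.16), Il1a (2.92) and Il6ra (1.73). The order against Tnf and Il1a rested on Pd1cKO-Tie2 1. In Pd1cKO-Tie2 2 Il1r1 (3.41) was below Tnf (4.28) and Il1a (4.19). Il1rap depended most on the gene model, as it was 1.84 per kilobase of its longest transcript.

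**Figure D3:**
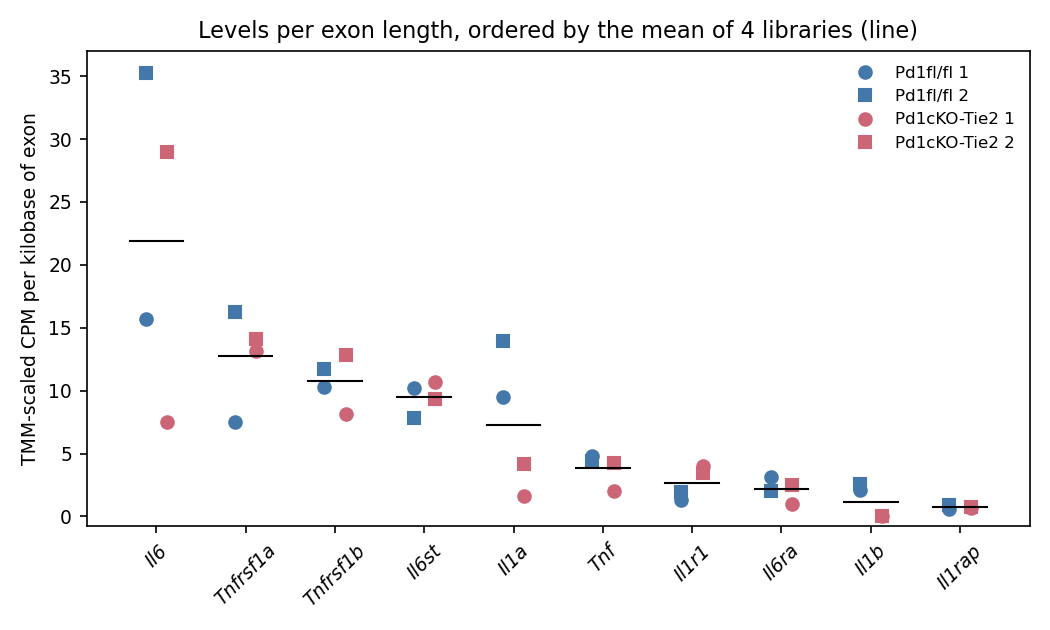
TMM-scaled CPM per kilobase of exon (vertical axis) of the 10 members in each of the 4 libraries, ordered by the mean of all libraries (line). Il6 has the highest mean, 21.9, and the widest scatter, and Il1rap the lowest, 0.73.

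Exons of 4 members share bases with a gene on the other strand: 222 bases of Il1a with Gm14023, 25 of Il1b with Il1bos, 552 of Il1rap with Gm20319 and 242 of Il6ra with Gm42809. The use of strand in counting is not given in the sources used here, so reads from these stretches cannot be assigned to one strand. No member shared exon bases on its own strand, and no stretch of 50 bases of any member occurred in a transcript of another gene.

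The other genes of the pathways were taken from 5 lists that hold 129 different genes. Of these 117 were in the tables, 103 were tested and 6 passed the criterion (5.83%, against 4.02% of all tested genes): Ripk1 was higher, and Il18rap, Nlrp3, Nfkbiz, Vcam1 and Ptgs2 were lower. The median log2 fold change of the 103 genes was −0.18, against −0.00381 for all tested genes. No adjusted p of the 6 was below 0.735 by edgeR.

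Of the IL-1 family partners, 24 of 28 genes were tested, 2 were lower past the criterion and none was higher, with a median log2 fold change of −0.54. Nlrp3, the sensor of the inflammasome that activates caspase-1, was 4.22 and 4.29 CPM in Pd1fl/fl and 0.67 and 0.37 CPM in Pd1cKO-Tie2. Its groups did not overlap (log2 fold change −3.01, SE 1.17), but the knockout values rested on 16 and 5 counts, and its call was lost without any 1 of the 4 libraries (log2 fold change −3.50 to −2.65). It was also lost with all 4 libraries under limma-voom and without the filter on low counts, and was kept in 4 of 10 alternatives. Il18rap, the accessory chain of the IL-18 receptor, was 42.8 and 36.0 CPM in Pd1fl/fl and 19.3 and 14.5 CPM in Pd1cKO-Tie2 (log2 fold change −1.22, SE 0.32), and kept its call under all 11 alternatives.

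Il18rap, Il18r1, Il1rl1, Il1rl2 and Il1r2 lie up to 198 kb from Il1r1 on chromosome 1, in the same orientation. Their log2 fold changes were all below 0, while that of Il1r1 was above 0. They ran from −1.39 for Il18r1 (SE 1.80) to −0.65 for Il1r2 (SE 1.80), with −0.90 for Il1rl2 (SE 0.71). These SE leave the signs of Il18r1, Il1r2 and Il1rl2 uncertain, and the groups overlapped for Il1r2 and Il1rl2. Il1rl1, the IL-33 receptor, was 35.4 and 44.6 CPM in Pd1fl/fl and 17.0 and 26.3 CPM in Pd1cKO-Tie2, a difference under 2-fold (log2 fold change −0.89, SE 0.35). The difference between Il1r1 and its neighbours was not tested. The natural inhibitors of IL-1 were too uneven between libraries to compare. Il1rn, the receptor antagonist, had 128, 24, 0 and 55 counts in Pd1fl/fl 1, Pd1fl/fl 2, Pd1cKO-Tie2 1 and Pd1cKO-Tie2 2. Il1r2, the decoy receptor, had 1, 69, 40 and 20. The adaptor Traf6 was 116 and 103 CPM in Pd1fl/fl and 73.0 and 82.1 CPM in Pd1cKO-Tie2 (log2 fold change −0.50, SE 0.20), and Tollip, an inhibitor of the receptor complex and the gene of the list with the highest CPM, had a log2 fold change of 0.044.

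None of the 21 tested IL-6 family partners, of 27 listed, passed the criterion, and their median log2 fold change was 0.10. The smallest p was that of Osm, the cytokine oncostatin M. Osm was 562 and 737 CPM in Pd1fl/fl and 330 and 395 CPM in Pd1cKO-Tie2, which did not overlap, and the log2 fold change of −0.84 (SE 0.19) was under 2-fold. Without Pd1fl/fl 1 it was −1.02, past the criterion. Its adjusted p was 0.735 by edgeR and 0.00288 by DESeq2, so Osm was among the 114 genes that DESeq2 called. The receptor chains that pair with gp130 had small log2 fold changes, 0.10 for Osmr (SE 0.31), −0.13 for Lifr (SE 0.19) and 0.23 for Il11ra1 (SE 0.24). The tyrosine phosphatases differed in sign, with −0.86 for Ptpn6 (SE 0.30) and 0.46 for Ptpn11 (SE 0.32). The shedding proteases Adam10 and Adam17, which release IL-6Rα and TNF from the membrane, had log2 fold changes of 0.10 and −0.21.

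Of the TNF family partners, 29 of 31 genes were tested and 1 was higher past the criterion, with a median log2 fold change of 0.034. Ripk1, the kinase recruited to TNFR1, was 13.6 and 13.8 CPM in Pd1fl/fl and 22.7 and 44.5 CPM in Pd1cKO-Tie2 (log2 fold change 1.29, SE 0.42). Its call was lost without Pd1cKO-Tie2 2 (0.73, SE 0.47), without Pd1fl/fl 1 (1.28, SE 0.57) and without Pd1fl/fl 2 (1.31, SE 0.57). The next smallest p-values were those of the death ligand Tnfsf10 (log2 fold change 0.91, SE 0.48) and of Tnfaip3, the NF-kB inhibitor A20 (−0.83, SE 0.45). Tnfaip3 was high in Pd1fl/fl 2 alone, at 85.3 CPM against 33.5 to 35.0 in the other 3 libraries. The TNF relatives Lta and Ltb, which flank Tnf on chromosome 17, were low and uneven: Lta had 0, 19, 45 and 0 counts and Ltb 31, 75, 35 and 28, in the library order above. Ltbr, the lymphotoxin receptor, had a log2 fold change of 0.18 (SE 0.20), the apoptotic protease gene Casp8 0.19 and the protease inhibitor Timp3 0.25.

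All 17 genes of the NF-kB pathway list were tested, and 1 was lower past the criterion, with a median log2 fold change of −0.32. Nfkbiz, an atypical IkB protein that IL-1 induces, was 74.2 and 90.2 CPM in Pd1fl/fl and 25.3 and 54.3 CPM in Pd1cKO-Tie2 (log2 fold change −1.05, SE 0.40). The call was lost without Pd1cKO-Tie2 1 (−0.59, SE 0.32) and without Pd1fl/fl 2 (−0.90, SE 0.48), while the log2 fold change was −1.69 without Pd1cKO-Tie2 2. Nfkb2, the p100 precursor, was 9.76 and 10.8 CPM in Pd1fl/fl and 29.5 and 15.5 CPM in Pd1cKO-Tie2, just outside the criterion (log2 fold change 1.13, SE 0.46). The inhibitor Nfkbia had a log2 fold change of 0.10 (SE 0.14) and the kinase Tbk1 one of −0.32 (SE 0.33).

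Of the 36 cytokine response genes of endothelium 22 were tested, 3 were lower past the criterion and none was higher, with a median log2 fold change of −0.33. Vcam1, an adhesion molecule bound by leukocyte integrins, was 44.5 and 55.0 CPM in Pd1fl/fl and 21.1 and 22.2 CPM in Pd1cKO-Tie2 (log2 fold change −1.20, SE 0.28), a call kept under all 11 alternatives. For Icam1 and Madcam1, also adhesion molecules of this list, the groups overlapped. Icam1 was 110 and 104 CPM in Pd1fl/fl and 127 and 93.8 CPM in Pd1cKO-Tie2 (log2 fold change 0.049, SE 0.22). Madcam1 had a log2 fold change of 0.60 (SE 0.98). Ptgs2, the inducible cyclooxygenase, was 38.5 and 45.6 CPM in Pd1fl/fl and 7.06 and 20.2 CPM in Pd1cKO-Tie2 (log2 fold change −1.64, SE 0.54). Without Pd1fl/fl 2 it narrowly missed the criterion (−1.51, SE 0.64). The fold change ran from −1.05 without Pd1cKO-Tie2 1 to −2.57 without Pd1cKO-Tie2 2 on the log2 scale, past the criterion in both. The third was Nfkbiz, which is also in this list. Junb, which with Nfkbia had the highest CPM of the list, had a log2 fold change of −0.28 (SE 0.15).

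**Figure D4:**
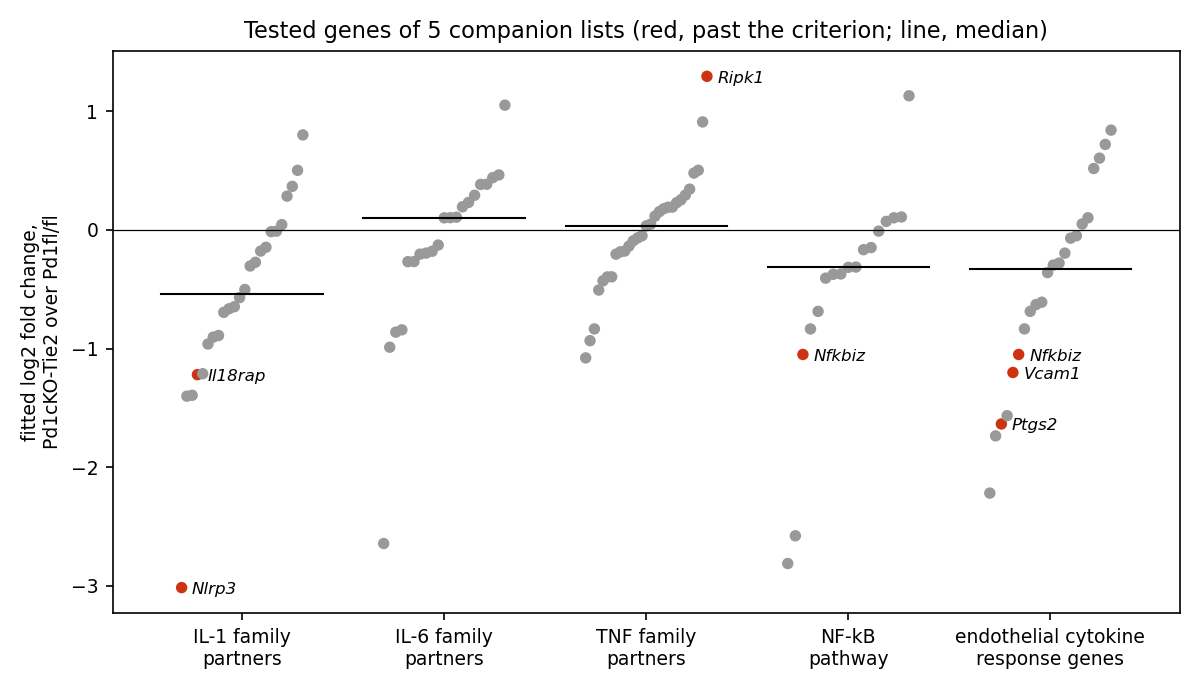
Fitted log2 fold change of Pd1cKO-Tie2 over Pd1fl/fl (vertical axis) for each tested gene of the 5 pathway lists, red where past the criterion and with a line at each list's median. The medians lie between −0.54 for the IL-1 family partners and 0.10 for the IL-6 family partners, and Ripk1 is the only red point above 0.

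Markers of some other cell types differed between the genotypes. The study reported more microglia in knockout cortex, from CX3CR1-GFP and CD68 imaging and from CX3CR1 protein and RNA. Those assays read tissue, so they are not a like measure to libraries of purified cells. In the purified cells, the summed level of the 20 microglia and macrophage markers was 2925 and 3365 CPM in Pd1fl/fl. It was 1223 and 2460 CPM in Pd1cKO-Tie2, or 38.9% and 78.2% of the control mean. None of the 20 was at 0 in any library. Of them 13 had both knockout libraries below both control libraries, an order held by 18.1% of all tested genes. For the rest, Cx3cr1, C1qc, Cd68, Fcrls, Mrc1, F13a1 and Pf4, the groups overlapped. Pf4 alone had a log2 fold change above 0, at 0.21 (SE 0.39). Past the criterion 3 of the markers were lower (Tmem119, Itgam and Trem2), as were 2.61% of all tested genes. The highest CPM were those of Csf1r, at 507 and 619 CPM in Pd1fl/fl and 234 and 434 CPM in Pd1cKO-Tie2, and of C1qa, at 432 and 541 against 170 and 397 CPM. In the same libraries Il1a stood at 14.1% and 35.8% of its control mean, Ptgs2 at 16.8% and 48.0%, and Tnf at 44.4% and 93.2%. Per 1000 CPM of these markers Il1a was 6.39 and 8.17 in Pd1fl/fl against 2.66 and 3.36 in Pd1cKO-Tie2, so the groups did not overlap on that scale either. Tnf, by contrast, was 2.67 and 2.15 in Pd1fl/fl against 2.73 and 2.85 in Pd1cKO-Tie2 per 1000 CPM of the markers, which turns the order of its groups. The part of these cells in the results was not tested.

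The 18 endothelial markers, led by Cldn5 and Slc2a1, summed to 18056 and 17131 CPM in Pd1fl/fl and 21771 and 22792 CPM in Pd1cKO-Tie2, which was 124% and 130% of the control mean. Per 10000 CPM of these markers Il1r1 was 4.56 and 7.22 in Pd1fl/fl against 11.8 and 9.53 in Pd1cKO-Tie2, still without overlap. The log2 ratio of its mean levels was 1.20 before this scaling and 0.86 after it, under 2-fold. Dividing by a marker sum moves every gene of a library alike. Scaled to the endothelial markers, 39.5% of all tested genes had both knockout libraries below both control libraries and 6.17% had both above. On this scale 7 members did not overlap, namely the 4 named above in their earlier directions, with Il1rap, Il6ra and Tnfrsf1b also below. Scaled to the microglia and macrophage markers, a scale chosen after the data were seen, 50.4% of all tested genes were above in this sense and 3.83% below. Here 8 members did not overlap: Il1a and Il1b were below, and Il1r1, Tnf, Il1rap, Il6st, Tnfrsf1a and Tnfrsf1b were above. The place of Il1b, at 0 in both knockout libraries, cannot change under any such scaling.

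**Figure D5:**
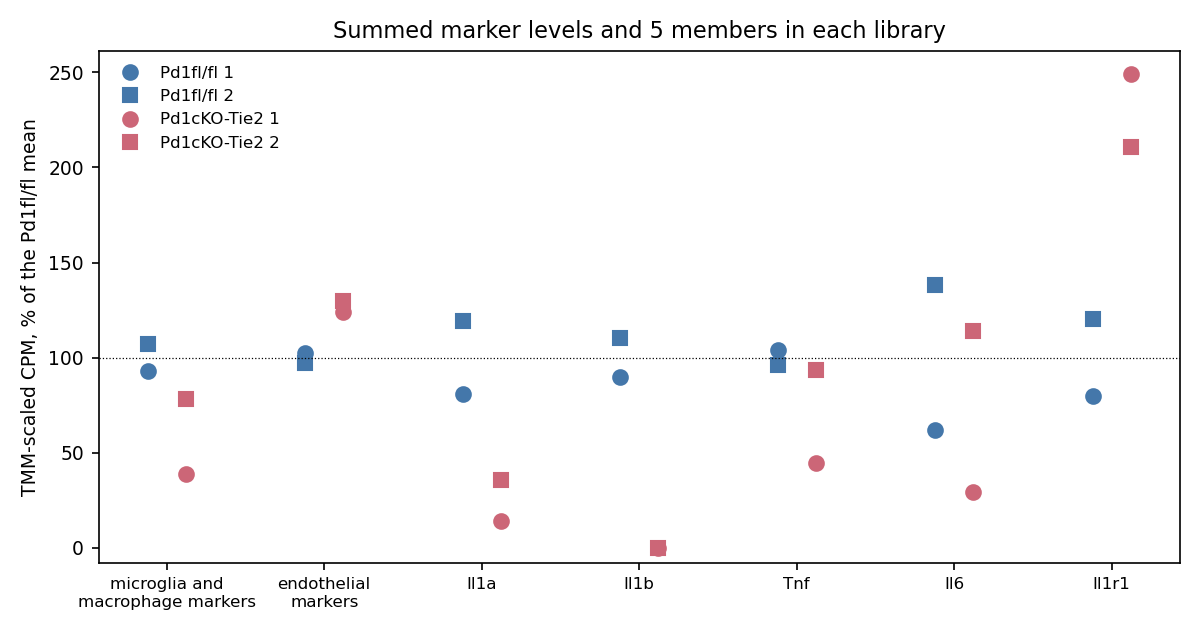
Summed TMM-scaled CPM of 2 marker lists and the level of 5 members in each library, as a percentage of the Pd1fl/fl mean (vertical axis, dotted line at the control mean). The marker sum for microglia and macrophages is at 38.9% and 78.2% in the knockout libraries, Il1a at 14.1% and 35.8%, and Il1b at 0.

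The neutrophil markers, led by Ngp and Mmp9, summed to 1143 CPM in Pd1fl/fl 1 and to 149, 132 and 86.8 CPM in the other 3 libraries. The markers differed among themselves. Ngp and Ltf were counted almost only in Pd1fl/fl 1, at 412 and 217 CPM. Of the 8 tested markers, 3 had both knockout libraries below both control libraries, an order held by 18.1% of all tested genes. They were Mmp9 and the receptor genes Csf3r and Cxcr2, and the rest overlapped. Csf3r was 25.5 and 32.7 CPM in Pd1fl/fl against 9.36 and 17.8 CPM in Pd1cKO-Tie2, past the criterion. Cxcr2 was 11.3 and 16.7 CPM against 0 and 5.41 CPM, not past the criterion (log2 fold change −2.39, SE 1.78). The radial glia and astrocyte markers, led by Ptprz1 and Slc1a3, were at 70.1% and 54.9% of the control mean in the Pd1cKO-Tie2 libraries. In the remaining lists the groups overlapped or were low. Pericyte and smooth muscle markers (Rgs5, Kcnj8) were at 79.1% to 121% of the control mean over the 4 libraries, neuronal markers (Sox11, Dcx) at 81.8% to 117%, oligodendrocyte lineage markers (Olig1, Cnp) at 75.7% to 133%, erythroid markers (Hba-a1, Hbb-bs) at 92.6% to 177% and leptomeningeal fibroblast markers (Col1a2, Col3a1) at 58.8% to 141%. Lymphocyte markers (Cd79b, Il7r) summed to no more than 43.1 CPM in any library. The part of these lists in the members' values was not tested.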

How the data were processed

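RNA libraries of purified brain endothelial cells (2 per genotype) were analysed from the 4 tables the authors deposited, each pairing 1 library of each genotype. The deposited counts are whole reads per gene, not normalized. The CPM columns are, by the authors, counts per 1000000 of the library total, and served only to recover totals. Fold changes, p-values and calls of the authors' own comparisons were not used. The submitters' processing notes name Bowtie2 2.2.3, TopHat2 2.0.12, HTSeq 0.6.0 and mm9, but the positions of all 10 members are those of GRCm38. The second Pd1cKO-Tie2 column matched its genotype but no numbered label. Broken lines (10) were skipped. Genes absent from a library's tables were given 0 there, and such counts made up no more than 0.0107% of any total.

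Counts were tested with edgeR 4.0.16 (R 4.3.3; filterByExpr, TMM, quasi-likelihood F test, no covariate), with Benjamini-Hochberg adjustment over 15909 genes. The criterion was the study's, 2-fold or more with an unadjusted p not above 0.05. Standard errors came from the fold change and F. DESeq2 1.42.0, limma-voom (limma 3.58.1), other filters and scalings, and leaving out each library were alternatives. Levels per kilobase used the union of GENCODE M21 exons, from Python 3.11.15. The scripts were tested on simulated data. Named genes were all members, a fixed set of relatives and, per pathway list, the 3 tested genes with the smallest p and the 2 with the highest mean CPM, and per marker list the 2 with the highest mean CPM. Others were chosen after their values were seen (Il18r1, Il1rl2, Icam1, Madcam1, Trem2, Tmem119, Itgam, Ptprc, Cx3cr1, C1qc, Cd68, Fcrls, Mrc1, F13a1, Pf4, Ltf, Csf3r and Cxcr2). The members and lists were chosen with earlier results of these data known.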

Additional observations from a re-analysis of the deposited data

How the results depend on the processing

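No paired analysis was possible because the groups share only 1 replicate number in the labels. Outside the leave-one-out fits, the log2 fold changes of the 10 members kept their sign and side of the criterion under every fitted tool, filter and scaling. These were 7 for each member and 6 for Il1b. The marker scales were not fitted, and there signs were not all kept. Scaled to the endothelial markers, the log2 ratio of mean levels was 0.86 for Il1r1, under 2-fold, −0.18 for Il6st and −0.16 for Tnfrsf1a. Scaled to the microglia and macrophage markers, it was above 0 for Il6 (0.18), Tnf (0.21), Il1rap (0.83), Il6ra (0.12) and Tnfrsf1b (0.77). Leaving out 1 library gave 689 to 877 genes past the criterion against 640 with all 4, 2 to 3 members against 3, and 4 to 10 companion genes against 6. The 10 came without Pd1cKO-Tie2 2. The number of genes with an adjusted p under 0.05 was 0 by edgeR and limma-voom and 114 by DESeq2, and 0 to 1 without a library. DESeq2 called 936 genes by the criterion and limma-voom 504. The number of members without overlap between groups was 4 with TMM, 7 scaled to the endothelial markers and 8 scaled to the microglia and macrophage markers, scales on which 39.5% of all tested genes lay below and 50.4% above without overlap. Over the leave-one-out fits the sign turned for 5 members that were not past the criterion, with log2 fold changes of −1.76 to 0.21 for Il6 (past the criterion at −1.76), −0.37 to 0.23 for Il1rap, −0.026 to 0.36 for Il6st, −0.25 to 0.86 for Tnfrsf1a and −0.43 to 0.23 for Tnfrsf1b. Where 1 library was left out, the remaining library of its genotype is assumed to vary like the other group. Depth limits Il1b, whose knockout level is known only to be under 0.125 to 0.219 CPM, and Nlrp3, with 5 and 16 counts.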
